A study of Mus musculus with 4 samples.

Results

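The 8 genes described here encode the cytoplasmic tyrosine kinases that stand closest to the B cell receptor: Lyn, Fyn, Blk, Fgr and Lck of the Src family, Syk of the Syk family, and Btk and Tec of the Tec family. They were taken by gene symbol from 23305 genes, and all 8 were found and passed the filter on low values, so they are 8 of 10949 tested genes. Expression was measured by RNA-seq in follicular B cells sorted from mouse spleen, in 2 WT and 2 Ets1-/- libraries, and deposited as FPKM, a fragment count scaled to the length of the transcript and the depth of the library. The WT mice were of strain C57BL/6. The Ets1-/- mice carried the germline knockout on C57BL/6 x 129Sv, so strain and genotype cannot be told apart in any difference given here. All mice were female, and their age is not given in the sources used here. The sort kept live B220+ cells with high CD23 and low CD21 that were negative for CD80 and for switched isotypes, and the number of animals behind each replicate is not given in the sources used here. P-values therefore measure the spread between these samples.

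These kinases carry the earliest signals of the B cell receptor. Src family kinases, above all Lyn, phosphorylate the tyrosines of the immunoreceptor activation motifs (ITAMs) of CD79A and CD79B. Syk docks on the phosphorylated ITAMs and phosphorylates the adaptor BLNK, which brings Btk to phospholipase C gamma-2 and so to calcium release. The same Src family kinases also phosphorylate inhibitory motifs (ITIMs) of receptors such as CD22, which recruit phosphatases, and Lyn is best known in follicular B cells for this restraining role. Ets1 is a transcription factor that keeps resting B cells from differentiating into antibody-secreting cells, and the comparison asks which of these signaling genes differ in mRNA level when Ets1 is missing.

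The deepest library had about 2.01 times the depth of the shallowest, judged by the shared ratio of values under 0.05 FPKM, a rough estimate since 28.9% to 41.4% of such genes lay at that ratio, and the values come without their read counts. Ets1 itself had an FPKM of 231 and 275 in WT and of 229 and 229.8 in Ets1-/- cells. The targeted allele removes part of the gene and leaves other exons transcribed, so the value of the whole gene does not check the genotype labels. The 10 B cell markers examined, Pax5 and Cd79a among them, summed to between 11292 and 13148 FPKM in the 4 libraries, and none was at 0. The 12 neutrophil markers summed to 118 and 95.9 FPKM in WT and to 2578 and 708 FPKM in the Ets1-/- replicates. Of the 12, 3 were called higher in Ets1-/- cells, against 0.877% of all tested genes. The part of neutrophils in the results below was not tested. In bulk samples like these, fewer cells of a type and less RNA per cell cannot be told apart.

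The 8 kinases covered an 18.6-fold range of mean levels in WT cells. FPKM is scaled to transcript length, so levels can be set side by side only as far as the transcript models used for the lengths hold. The annotation behind them is not given in the sources used here, so close ranks are uncertain. Blk, the kinase named for the B lymphoid lineage, had the highest mean, 265 ± 2.97 FPKM (SD, n = 2), followed by Syk at 231 ± 9.76 FPKM. Lyn (117 ± 6.29 FPKM) and Btk (109 ± 1.10 FPKM) lay next to each other, and Tec followed at 67.9 ± 4.02 FPKM. Lck, the kinase of the T cell receptor, was at 44.9 ± 6.35 FPKM, Fyn at 24.97 ± 0.548 FPKM and Fgr, otherwise known from myeloid cells, at 14.3 ± 0.378 FPKM. In WT cells no neighbours in this order overlapped between replicates, although Lyn and Btk came close, with 113 FPKM as the lower Lyn value and 110.0 FPKM as the higher Btk value. In Ets1-/- cells the order was kept from Syk down to Lck, while Blk and Syk overlapped with each other, as did Fgr and Fyn at the low end.

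**Figure D1:**
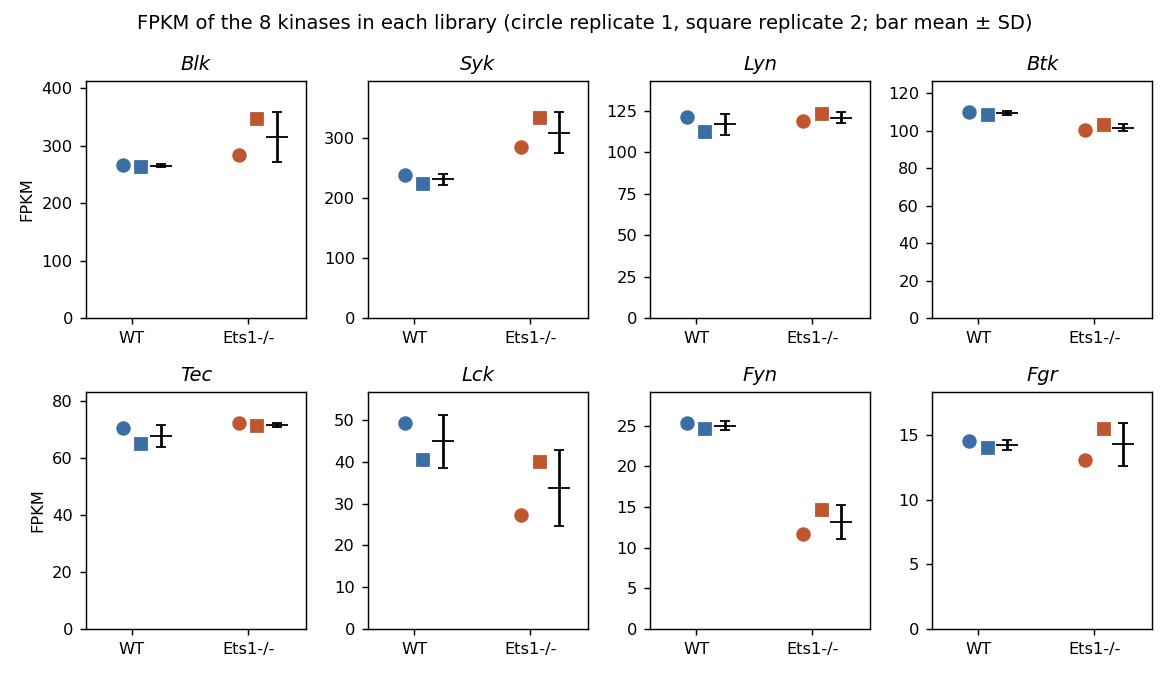
FPKM (y axis, from 0) of each kinase in the 2 WT and 2 Ets1-/- libraries (x axis), ordered by WT level; circles are replicate 1, squares replicate 2, and bars the mean ± SD. Fyn is at 24.6 and 25.4 FPKM in WT and at 11.7 and 14.7 FPKM in Ets1-/- cells, while the Lyn and Fgr values of the genotypes overlap.

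No kinase of the 8 passed the thresholds for a change, which were a log2 difference of 1 or more in size, taken on log2(FPKM + 1), and a limma adjusted p no higher than 0.05. Across all tested genes 1.70% passed, 0.877% higher and 0.822% lower in Ets1-/- cells. At an unadjusted p under 0.05 the count was 1 of 8, Fyn, against 13.3% of all tested genes. Syk, Blk and Tec were higher in both Ets1-/- libraries than in both WT libraries, as 19.4% of all tested genes were. Fyn, Lck and Btk were lower in both, as 22.2% of all tested genes were. The values of Lyn and Fgr overlapped. The median log2 fold change of the 8 kinases was 0.02, and that of all tested genes was -0.02. The 95% intervals of Lyn, Blk, Fgr, Syk, Btk and Tec, 6 of the 8, stayed within a 2-fold change in either direction, and those of Fyn and Lck did not.

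**Figure D2:**
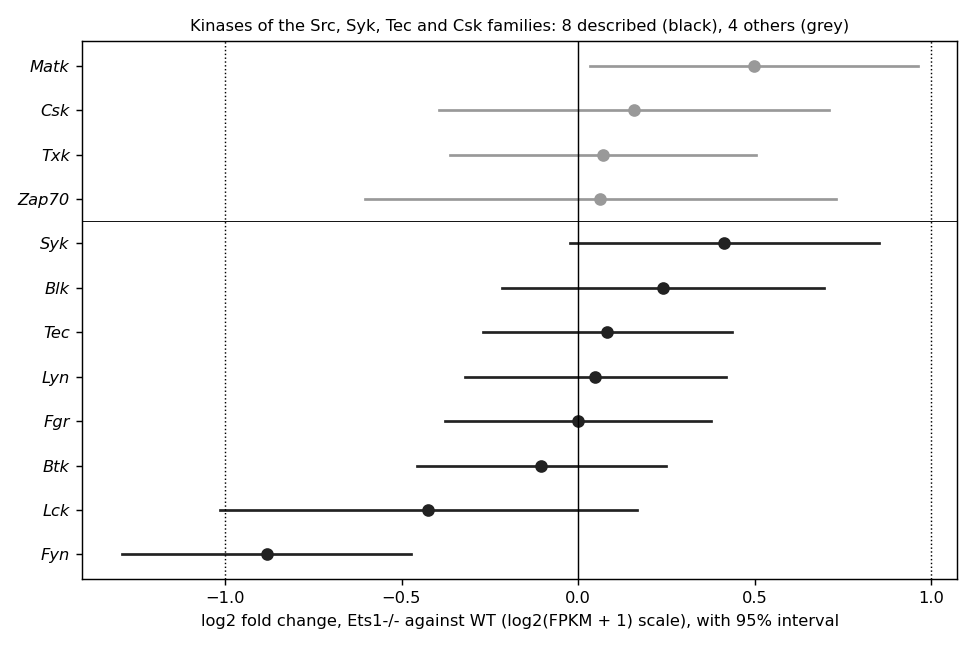
Log2 fold change of Ets1-/- against WT cells on the log2(FPKM + 1) scale (x axis) with its 95% interval from limma, for the 8 kinases (black) and 4 further kinases of the same families and the Csk family (grey); dotted lines mark a 2-fold change. The interval of Fyn, from -1.29 to -0.47, and that of Matk are the 2 that do not include 0.

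Fyn, a Src family kinase shared by B and T cells, showed the largest difference of the 8. Its FPKM was 25.4 and 24.6 in the WT replicates and 11.7 and 14.7 in the Ets1-/- replicates. Both Ets1-/- values thus lay well below both WT values, and the gap between genotypes was wider than that between replicates. The WT mean was 1.90 times the Ets1-/- mean. On the log2(FPKM + 1) scale the difference was -0.88 (standard error 0.16), with an unadjusted p of 0.00254 and an adjusted p of 0.0796 by limma, so it met neither threshold. Leaving out each replicate in turn kept the difference between -1.03 and -0.73. The gene lies on chromosome 10 of mm9 from 39088661 to 39285187 on the plus strand, with 9 annotated transcripts, and the values are of the whole gene, so the brain-type and T cell-type isoforms of Fyn are not separated. Of all tested genes, the 3 whose centred profile over the 4 libraries lay closest to that of Fyn were Tle1, Ppp1r18 and Actb. Actb, cytoplasmic beta-actin, had 1598 and 1519 FPKM in WT and 754 and 906 FPKM in Ets1-/- cells, and Ppp1r18 had 119 FPKM in both WT libraries and 58.3 and 71.6 FPKM in the Ets1-/- libraries. Tle1, a transcriptional corepressor, had 3.48 and 3.36 FPKM in WT and 1.12 and 1.71 FPKM in Ets1-/- cells.

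The promoter of Fyn is shown because Fyn differed most and because Ets proteins bind a GGAA core. The sequence is the window from 250 bases before to 50 bases after the RefSeq transcript start, from a table on GRCm38.p6, and it matched mm9 exactly once, at chr10:39089355-39089654 on the plus strand, with its start site 944 bases past the annotated start of the gene. GGAA (TTCC on the other strand) would be in capitals and was not found in these letters. Of 32851 windows of the same length, 96.0% held at least 1 GGAA on either strand, and 16.9% held the longer CGGAAG, which contains GGAA.

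Fyn: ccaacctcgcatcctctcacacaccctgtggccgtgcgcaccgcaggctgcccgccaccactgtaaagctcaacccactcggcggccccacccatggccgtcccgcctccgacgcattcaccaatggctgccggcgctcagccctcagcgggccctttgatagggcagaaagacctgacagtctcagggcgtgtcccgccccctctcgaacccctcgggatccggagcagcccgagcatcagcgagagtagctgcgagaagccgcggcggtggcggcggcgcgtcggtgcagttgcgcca

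Among the other Src family kinases, Lck was also lower in Ets1-/- cells, with a wide spread. Lck had 49.4 and 40.4 FPKM in WT and 27.2 and 40.0 FPKM in Ets1-/- cells. The higher Ets1-/- value lay just under the lower WT value, and the Ets1-/- replicates differed 1.47-fold. The log2 difference was -0.42 (standard error 0.23, limma adjusted p = 0.569), and it was -0.15 without Ets1-/- replicate 1 and -0.70 without Ets1-/- replicate 2. Lck is transcribed from chromosome 4, between 129225588 and 129250885 of mm9 on the minus strand. It has 2 RefSeq start windows 15269 bases apart, which the FPKM of the whole gene joins, with 7 GGAA cores in the upstream window and 4 in the downstream window.

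Blk had 267 and 263 FPKM in WT and 284 and 346 FPKM in Ets1-/- cells. Its WT values were nearly equal, and both Ets1-/- values were higher, 1 of them only slightly. The log2 difference of 0.24 (standard error 0.18) had a limma adjusted p of 0.704, and its interval ran from -0.22 to 0.70. Under quantile normalization the difference of Blk was 0.10, and it was 0.38 without Ets1-/- replicate 1 and 0.10 without Ets1-/- replicate 2.

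Lyn, the main ITAM and ITIM kinase of B cells, had overlapping values in the genotypes. Its FPKM was 121 and 113 in WT and 119 and 123 in Ets1-/- cells, and the Ets1-/- values began inside the WT range. The log2 difference was 0.05 (standard error 0.14, limma adjusted p = 0.959), with an interval from -0.32 to 0.42.

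Fgr, on chromosome 4 of mm9 from 132530010 to 132557825 and 3.28 Mb beyond Lck, gave 14.5 and 14.0 FPKM in WT and 13.1 and 15.5 FPKM in Ets1-/- cells. The Ets1-/- replicates lay on either side of the WT replicates. The log2 difference was 0.00 (limma adjusted p = 0.999), its sign changed with the replicate left out, and the interval ran from -0.38 to 0.37. Fgr is abundant in neutrophils and monocytes. The neutrophil marker sum in these Ets1-/- libraries was 2578 and 708 FPKM, against 118 and 95.9 FPKM in WT. Most of that sum came from S100a8 and S100a9. Of the 12 neutrophil markers, 11 were higher in both Ets1-/- libraries, as 19.4% of all tested genes were. Csf3r overlapped, with 2.43 and 1.18 FPKM in WT and 2.16 and 1.36 FPKM in Ets1-/- cells. The part of neutrophils in the Fgr values was not tested.

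Syk, which couples phosphorylated ITAMs to downstream signaling, had the largest positive difference of the 8. Its FPKM was 238 and 224 in WT and 285 and 333 in Ets1-/- cells. Both Ets1-/- libraries were above both WT libraries, with a mean 1.34 times as high. The log2 difference of 0.41 (standard error 0.17) had an unadjusted p of 0.0592 and an adjusted p of 0.403 by limma, and its interval from -0.02 to 0.85 held no 2-fold change. Quantile normalization gave 0.26 and upper-quartile scaling gave 0.40. The 3 genes with the closest profile to Syk were Sp110, Lamc1 and 2410066E13Rik. Sp110, a nuclear body protein, had 185 and 176 FPKM in WT and 219 and 258 FPKM in Ets1-/- cells.

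Syk lies on chromosome 13 of mm9 from 52678542 to 52744161 on the plus strand, where the annotation lists it under the older name Sykb. RefSeq gives it 2 start windows in the same table, which matched mm9 at chr13:52678556-52678855 and chr13:52692001-52692300. They are shown as the counterpart to Fyn, the member with the opposite difference, with each GGAA or TTCC in capitals. The upstream window held 0 such cores and the downstream window 3.

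Syk upstream start: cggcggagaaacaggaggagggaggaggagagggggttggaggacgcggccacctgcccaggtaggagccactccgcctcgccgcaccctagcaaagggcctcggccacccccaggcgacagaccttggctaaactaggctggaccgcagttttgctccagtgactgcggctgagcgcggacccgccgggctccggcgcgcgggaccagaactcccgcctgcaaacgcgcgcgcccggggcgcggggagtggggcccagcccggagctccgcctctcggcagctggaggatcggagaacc
Syk downstream start: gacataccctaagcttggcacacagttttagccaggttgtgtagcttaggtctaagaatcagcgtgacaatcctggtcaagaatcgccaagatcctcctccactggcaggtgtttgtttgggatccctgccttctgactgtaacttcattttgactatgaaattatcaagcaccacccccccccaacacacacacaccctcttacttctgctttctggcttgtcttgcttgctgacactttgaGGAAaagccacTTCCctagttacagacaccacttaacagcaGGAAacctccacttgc

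The other windows in the table belonged to Fgr (4 GGAA cores), Btk (5) and Tec (5, with 1 CGGAAG). Lyn and Blk had no entry. These counts describe letters in windows and were set against no binding data.

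Btk and Tec, the Tec family kinases, differed little between genotypes. Btk, the kinase whose loss causes X-linked agammaglobulinemia in humans, had 110.0 and 108 FPKM in WT and 100.2 and 103 FPKM in Ets1-/- cells. Both Ets1-/- values were below both WT values, by a small step, and the Ets1-/- mean differed from the WT mean by -7.05%. The log2 difference of -0.10 (standard error 0.14) had a limma adjusted p of 0.868. Btk lies on chromosome X of mm9 from 131076875 to 131118109. Tec, which can partly take over from Btk in B cells, had 70.7 and 65.0 FPKM in WT and 72.3 and 71.3 FPKM in Ets1-/- cells. Its Ets1-/- values were just above the higher WT value, with a log2 difference of 0.08 (standard error 0.14, limma adjusted p = 0.904).

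Within the Src family, Blk held a larger share, and Lck, Fyn and Fgr smaller shares, in each Ets1-/- library than in each WT library. Of the summed FPKM of the 5 Src family kinases, Fyn made up 5.31% and 5.41% in the WT libraries and 2.57% and 2.72% in the Ets1-/- libraries. Blk made up 55.9% and 57.9% in WT and 62.5% and 64.1% in Ets1-/- cells, and Lck 10.3% and 8.88% against 5.98% and 7.42%. The mean share thus differed by 6.40 points for Blk, -2.90 points for Lck and -2.71 points for Fyn. Lyn held 25.1% ± 0.460 (SD, n = 2) in WT and 24.5% ± 2.28 in Ets1-/- cells, which overlapped. The sum itself was 466 ± 16.5 FPKM in WT and 497 ± 59.9 FPKM in Ets1-/- cells. Shares of a sum depend on each other, and with 2 against 2 libraries no permutation p can go below 0.33, so they were not tested.

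**Figure D3:**
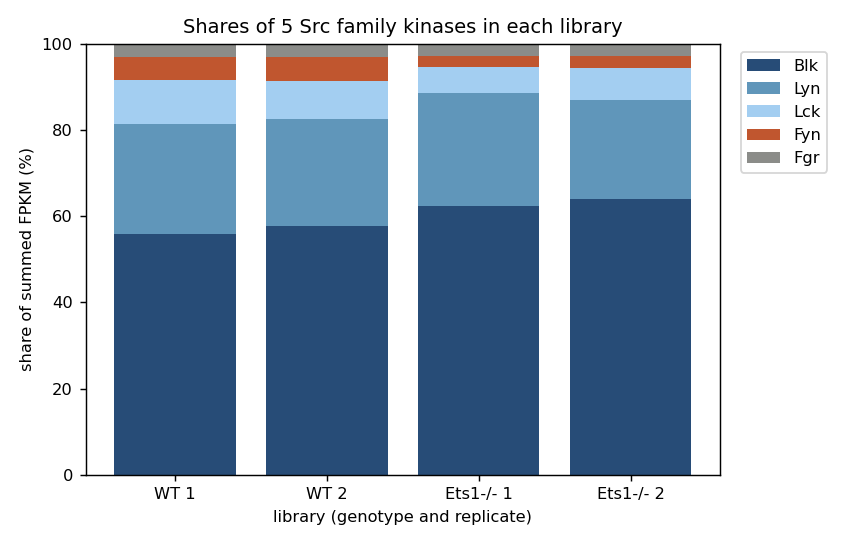
Share of each of 5 Src family kinases in their summed FPKM (y axis, percent) for each library (x axis, genotype and replicate). The Fyn segment is 5.31% and 5.41% in the WT libraries and 2.57% and 2.72% in the Ets1-/- libraries, and Blk is the largest segment in all 4.

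The ratio of Lyn to Fyn, which needs no scaling between libraries, was 4.79 and 4.58 in WT and 10.2 and 8.42 in Ets1-/- cells. The ratio of Syk to Lyn, the kinase that prepares its docking sites, was 1.96 and 1.99 in WT and 2.40 and 2.70 in Ets1-/- cells. Both ratios were higher in each Ets1-/- library than in each WT library. For the Tec family, the ratio of Btk to Tec was 1.56 and 1.67 in WT and 1.39 and 1.44 in Ets1-/- cells.

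A further 10 kinases of these families were examined, of which 6 passed the filter on low values and 0 of the 6 were called. Only Matk, a relative of Csk, had an unadjusted p under 0.05, with 7.42 and 8.05 FPKM in WT and 9.77 and 13.1 FPKM in Ets1-/- cells (limma adjusted p = 0.333). Csk, which phosphorylates the inhibitory tail tyrosine of Src family kinases, was the most abundant of the 10 at 366 and 337 FPKM in WT and 336 and 457 FPKM in Ets1-/- cells. Yes1, Src, Frk and Bmx were under 1 FPKM in all 4 libraries, with 0.445 FPKM, for Yes1 in a WT library, as the highest value.

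Zap70, the relative of Syk best known from T cells, was read beside T cell markers. Zap70 had 5.68 and 4.93 FPKM in WT and 4.17 and 7.35 FPKM in Ets1-/- cells. The 11 T cell markers summed to 298 and 307 FPKM in WT and 297 and 372 FPKM in Ets1-/- cells, most of it from Cd2, which mouse B cells express too. None of the 11 was at 0 in all libraries, and 0 of the 10 tested were called. The CD3 chain Cd3e had 7.62 and 6.67 FPKM in WT and 7.58 and 7.74 FPKM in Ets1-/- cells, and the zeta chain Cd247, an ITAM-bearing target of Lck, had 9.77 and 7.30 FPKM in WT and 15.3 and 23.7 FPKM in Ets1-/- cells (limma adjusted p = 0.145). Of the 11, 2 were higher in both Ets1-/- libraries (Cd247 and Cd3g) and 2 were lower in both (Cd8a and Cd8b1). Across all tested genes 19.4% were higher in both and 22.2% lower in both. The T cell sum thus joins members that differ in direction. Cd8a had 6.88 and 5.11 FPKM in WT and 4.45 and 4.85 FPKM in Ets1-/- cells. The 7 NK cell markers, another population with Fyn and Lck, summed to 44.8 and 31.2 FPKM in WT and 21.4 and 30.4 FPKM in Ets1-/- cells, with 0 called and 0 at 0 in all libraries. Nkg7 and Gzma carried much of that sum. Of the 7, 5 (Ncr1, Klrb1c, Klrd1, Gzma and Prf1) were lower in both Ets1-/- libraries, as were Fyn, Lck and 22.2% of all tested genes. Eomes was higher in both Ets1-/- libraries and the Nkg7 values of the genotypes overlapped, so this sum too joins members that differ in direction. Klrd1, the CD94 receptor chain, had 6.81 and 6.31 FPKM in WT and 2.93 and 3.16 FPKM in Ets1-/- cells, a log2 difference of -0.90 (limma adjusted p = 0.0588) beside -0.88 for Fyn. The part of T cells and NK cells in the Fyn and Lck values was not tested. The 11 monocyte and macrophage markers summed to 64.1 and 31.6 FPKM in WT and 150 and 95.2 FPKM in Ets1-/- cells. Of these, Emr1, the F4/80 antigen, was called higher, with 2.35 and 2.63 FPKM in WT and 23.5 and 37.2 FPKM in Ets1-/- cells (limma adjusted p = 0.00969), while Csf1r was between 0.876 and 2.35 FPKM throughout.

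**Figure D4:**
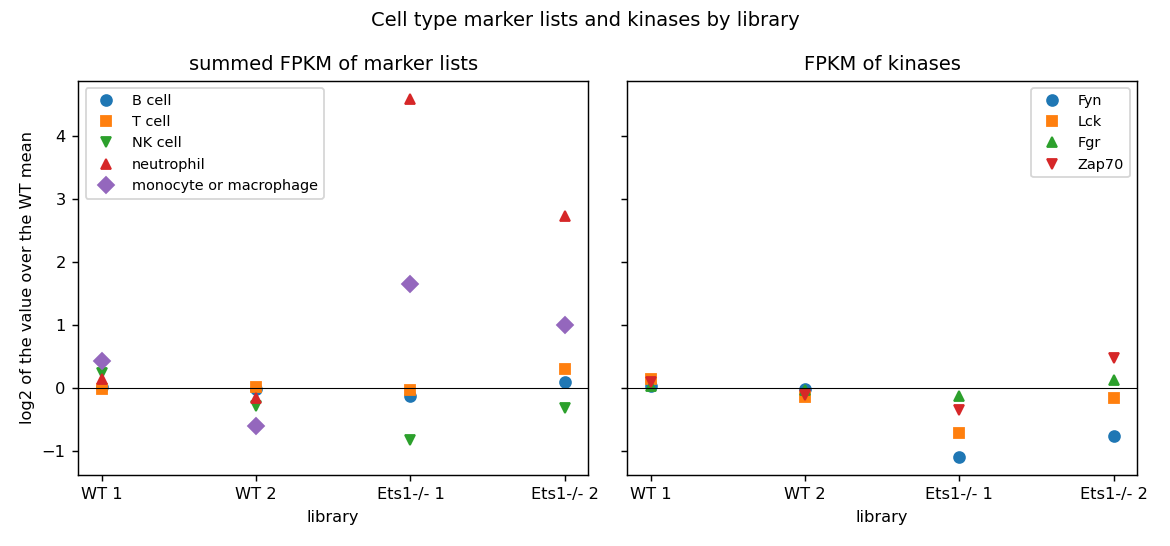
Log2 of each value over the mean of the 2 WT libraries (y axis) for each library (x axis), for summed marker lists (left) and for 4 kinases (right). The neutrophil sum is far above the WT mean in both Ets1-/- libraries. Fgr stays near 0, and Fyn and the NK cell sum are below the WT mean in both Ets1-/- libraries. The T cell sum is mostly Cd2, and the neutrophil sum mostly S100a8 and S100a9.

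The genes around the kinases were read from 5 lists that together held 64 genes, of which 57 were tested. None of the 57 was called by limma, against 1.70% of all tested genes, and 12 of the 57 (21.1%) had an unadjusted p under 0.05, 4 higher and 8 lower, against 13.3% of all tested genes. Their median log2 difference was -0.04.

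Of the 16 genes that regulate the kinases, 0 were called and 4 had an unadjusted p under 0.05, with a median log2 difference of -0.07. Ubash3b, a phosphatase that acts on Syk and Zap70, had 4.34 and 3.17 FPKM in WT and 10.1 and 14.6 FPKM in Ets1-/- cells. That is a mean 3.29 times as high, with a log2 difference of 1.48 and a limma adjusted p of 0.0568, and with the replicate block, 1 of the alternatives, the adjusted p was 0.0270. Ptpn22, a phosphatase of Src family kinases and Zap70, lay in the other direction at -1.02 (limma adjusted p = 0.0664). The authors, using Cuffdiff, listed Ptpn22 as lower in Ets1-/- cells, and their RT-PCR went in the same direction. The lower values at an unadjusted p under 0.05 also included Cbl, a ubiquitin ligase for activated kinases, at -0.49, and Unc119, which binds lipid-anchored Src family kinases, at -0.50. Ptprc (CD45), which removes the inhibitory phosphate, and Ptpn6 (SHP-1), the most abundant of the list at 545 and 497 FPKM in WT, differed by 0.01 and 0.08. The Btk inhibitors Ibtk and Sh3bp5 differed by -0.33 and 0.16.

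Of the 5 antigen receptor and coreceptor chains, 0 were called, and Cr2 and Cd81 had an unadjusted p under 0.05. Cd81, a tetraspanin of the B cell coreceptor complex, had 124 and 129 FPKM in WT and 68.5 and 78.9 FPKM in Ets1-/- cells (log2 difference -0.77, limma adjusted p = 0.0928). Cr2, the complement receptor CD21 that the sort selected as low, differed by -1.28 (limma adjusted p = 0.216). The authors, using Cuffdiff, listed Cr2 as lower in Ets1-/- cells. Cd79a, the most abundant of the list and a substrate of Lyn, had 1923 and 2051 FPKM in WT and 1407 and 1639 FPKM in Ets1-/- cells, a log2 difference of -0.39 with a limma adjusted p of 0.608.

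Of the 9 inhibitory receptors with ITIMs, 8 were tested and 0 were called, with a median log2 difference of -0.04. Cd72 had 355 and 391 FPKM in WT and 538 and 575 FPKM in Ets1-/- cells (log2 difference 0.58, limma adjusted p = 0.228). Lilrb3, the symbol under which the file lists PIR-B, had 22.4 and 17.2 FPKM in WT and 14.3 and 6.98 FPKM in Ets1-/- cells (log2 difference -0.90, limma adjusted p = 0.350), and reads may be shared with its close relatives of the PIR-A genes. Cd22, the most abundant of the list, differed by -0.19.

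Of the 25 adaptors and substrates, 23 were tested, 0 were called and 3 had an unadjusted p under 0.05, with a median log2 difference of 0.03. Plcg1 had 11.4 and 9.90 FPKM in WT and 3.78 and 5.04 FPKM in Ets1-/- cells, a WT mean 2.42 times the Ets1-/- mean (log2 difference -1.11, limma adjusted p = 0.0615). Its relative Plcg2, the form that Btk activates in B cells, had 121 and 107 FPKM in WT and 115 and 154 FPKM in Ets1-/- cells, with overlap. Dok2, an adaptor that restrains kinase signaling, differed by 0.65 (limma adjusted p = 0.154), and Dok3, the most abundant of the list, by 0.38 with overlap. Blnk, the Syk substrate, differed by -0.12.

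**Figure D5:**
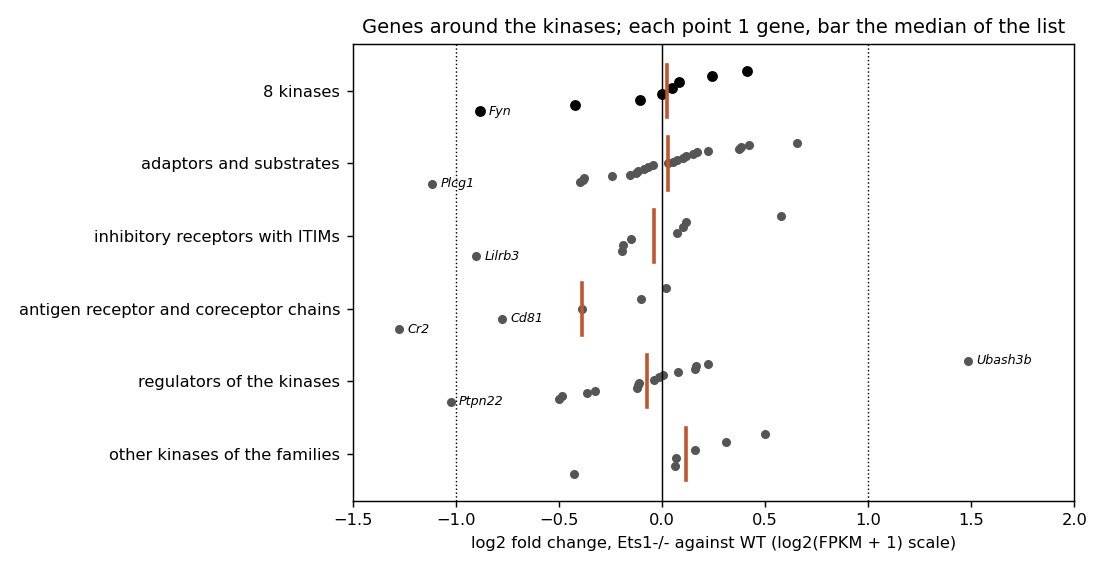
Log2 fold change of Ets1-/- against WT cells on the log2(FPKM + 1) scale (x axis) for the tested genes of each list (y axis); each point is 1 gene, bars are list medians and dotted lines mark a 2-fold change. Ubash3b at 1.48, and Cr2, Plcg1 and Ptpn22 between -1.28 and -1.02, lie beyond the lines, and none of them passed the adjusted p.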

How the data were processed

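RNA of sorted follicular B cells from 2 WT and 2 Ets1-/- samples was sequenced. The authors aligned reads to mm9 with TopHat2 (version 2.0.13 in the submitters' processing notes), and deposited 1 Cuffdiff table of FPKM values per library. The annotation and any scaling between libraries are not given in the sources used here, and without read counts no interval for counting error can be given. Of 23309 entries, 4 with repeated symbols were left out. The 10949 genes whose mean reached 1 FPKM in WT or in Ets1-/- cells were compared on log2(FPKM + 1), which understates changes of low genes, with limma 3.58.1 in R 4.3.3 (variance trend by mean level, no replicate block, 2 residual degrees of freedom). Benjamini-Hochberg adjustment covered all tested genes. Calls needed a 2-fold or larger difference and an adjusted p no higher than 0.05. The fit was tested on simulated data with this spread, drawn independently for each gene, where it called nearly all 4-fold differences but no 2-fold difference. A 2-fold difference lies on the threshold itself. False calls were 12 of 209 in the 4-fold run and 4 of 4 in the 2-fold run.

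The 8 kinases, the gene lists and the marker lists were chosen with earlier results of these data known. Beyond the kinases, the text names in each pathway list the called genes, the 2 largest further differences and the most abundant gene, and the 3 genes closest in profile (Euclidean distance of centred values) to Syk and Fyn, the kinases with the largest positive and negative difference. Any further gene, such as Zap70, Cbl, Unc119, Plcg2 and single markers, was named after its values were seen. Some genes of the lists are counted but not reported here. Gene positions are from GENCODE M1 on mm9, and promoter windows (found for 6 of the 8 kinases) from RefSeq on GRCm38.p6, matched to mm9 by exact sequence. Alternatives covered pseudocounts of 0.1 and 0.5, filters, quantile and upper-quartile scaling, robust variance, thresholds, blocks and each replicate left out.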

Additional observations from a re-analysis of the deposited data

How the results depend on the processing

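Under the 14 alternatives that refit the model, and under a ratio of means with no test, 0 of the 8 kinases were called. Blocks, filters, robust variance and thresholds could not alter a log2 difference in this fit, so their agreement in direction was fixed in advance. Of 112 log2 differences of the kinases in all 14 refits, 108 kept their direction. The exceptions were Fgr, at 0.018 after quantile normalization and between -0.11 and 0.11 with each replicate left out, and Lyn, between -0.0055 and 0.10 with each replicate left out. The limma adjusted p of Fyn was lowest, at 0.00397, with a block that crosses the replicate numbers between genotypes, which was added after seeing the data. It was 0.0428 among genes of at least 1 FPKM in every library, 0.0360 with robust variance and 0.120 without a filter. In each of these refits the Fyn difference of -0.88 stayed under the 2-fold minimum. The 186 genes called became 75 without a filter, 305 with robust variance, 696 without a test by ratio of means and no overlap, and 99 to 116 with each replicate left out. Deviations from the genotype mean correlated at -0.21 across genes between replicates of the same number. With 2 replicates per genotype the crossed pairing gives 0.21 by construction, so this cannot decide whether the numbers pair the samples. With the replicate block 266 genes were called and Fyn had an adjusted p of 0.118. With the crossed pairing as a block, added after seeing the data, 409 genes were called. That pairing joins the deeper library of each genotype. These are WT replicate 2 and Ets1-/- replicate 1, at 1.71 and 1.65 times the depth of WT replicate 1. The part of depth was not tested. Of the 57 list genes, 1 was called with the replicate block (Ubash3b), 3 with robust variance and 3 among genes of at least 1 FPKM in every library (Ubash3b, Ptpn22 and Plcg1 in both), 4 with the crossed block and 4 without a test. The Lyn share of the Src family, -0.60 points apart between genotypes, ran from -2.21 to 1.01 points with each replicate left out. The authors give a range of reads per sample, and the depth of each single library is known only as a ratio. Differences under 2-fold could not be called by the thresholds used, and 0 of 8 called says little about differences near 2-fold.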

Other observations

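The remaining marker lists were read for the same libraries. The 6 plasma cell markers summed to 168 and 189 FPKM in WT and 138 and 152 FPKM in Ets1-/- cells, and the 6 marginal zone B cell markers to 702 and 862 FPKM in WT and 679 and 707 FPKM in Ets1-/- cells. None of these markers was called. Of the 6 plasma cell markers, 2 were higher in both Ets1-/- libraries (Prdm1 and Sdc1) and 3 were lower in both (Xbp1, Irf4 and Tnfrsf17). Across all tested genes 19.4% were higher in both and 22.2% lower in both. Tnfrsf17 was below the filter on low values and was not tested. The plasma cell sum thus joins members that differ in direction. Prdm1 had 0.580 and 0.672 FPKM in WT and 1.68 and 1.48 FPKM in Ets1-/- cells. The authors, using Cuffdiff, listed Prdm1 as higher in Ets1-/- cells, and their RT-PCR went in the same direction. The 8 platelet and erythroid markers summed to 8.20 and 6.30 FPKM in WT and 66.6 and 29.7 FPKM in Ets1-/- cells, most of it from the hemoglobin genes Hba-a1 (2.90 and 0.906 FPKM in WT, 24.7 and 13.4 FPKM in Ets1-/- cells) and Hbb-b1 (2.89 and 2.79 FPKM in WT, 34.7 and 12.8 FPKM in Ets1-/- cells). Neither gene passed the thresholds, with limma adjusted p of 0.0564 and 0.0759. In these 2 genes, as in the neutrophil sum, Ets1-/- replicate 1 was the higher of the Ets1-/- libraries, and it was also the library with the lowest Fyn and Lck. What these values have to do with each other was not tested.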
